A study of Mus musculus with 2 samples.

Results

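Gene expression of 9 genes that sense or pass on mechanical and osmotic signals at the cell membrane was followed in mouse primary chondrocytes on 2 one-colour arrays. They are the force-gated cation channels Piezo1 and Piezo2, the transient receptor potential (TRP) channels Trpv4, Trpm7 and Trpc1, the polycystins Pkd1 and Pkd2, the two-pore potassium channel Kcnk2 and the connexin gene Gja1. The members were chosen by name and found through the RefSeq transcript that the scanner files give for each probe, which located all 9 genes, on 12 probes and 21 spots, among 20660 named genes on the arrays. The first array held RNA of articular chondrocytes from C57BL/6J mice aged 6 days, taken before loading. The second held RNA of such a culture 24 h after it had been stretched cyclically for 30 min, at 0.5 Hz and with 10% elongation, in fibronectin-coated silicone chambers, 48 h after seeding. An unloaded culture of the same age was not analysed here, so that loading and further culture cannot be told apart, and the number of mice behind each array was not given in the sources used here. Each time point is a single array, and the values below are differences between 2 arrays of the same slide with no replicate check and no test.

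Chondrocytes lie in a matrix that deforms with every movement of the joint, and calcium entry through channels of the plasma membrane is one of the earliest responses of these cells to deformation or swelling. PIEZO channels open when the membrane is stretched, TRPV4 responds to osmotic change and milder deformation, and TREK-1, the product of Kcnk2, lets potassium out when the membrane is stretched. Polycystin-1 and polycystin-2 form a complex in the primary cilium, and the connexin encoded by Gja1 builds gap junctions and hemichannels that release ATP, so that Gja1 and Pkd1 stand here beside the channels proper.

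Signals are given as the processed intensity of the scanner software, and changes as the log2 ratio of 24 h after to before loading, after each array was divided by its own 75th percentile, which was almost equal on both (466.4 and 466.2). The error beside a ratio combines the software's errors of both spots and covers within-array error only. For a probe with several spots it is the mean of the single-spot errors. A probe is called detected when it was well above background on both arrays. That held for the brightest probe of 14231 genes, whose median log2 ratio was -0.01. No spot was saturated. Probes differ in how strongly they bind, so that a low or high signal refers to the probe alone and does not order the transcript levels of different genes. Here and below, a pair of intensities gives the value before loading first and the value at 24 h second. All 10 chondrocyte markers listed were detected, with summed intensities of 1261040 and 1246570, among them Col2a1 at 499543 and 474876. Single markers differed more than the sum, with 6 higher and 4 lower at 24 h. They ran from Matn1 (log2 ratio 0.56) to Col11a1 (107657 and 60799, log2 ratio -0.82), the only one past 1.5-fold. Markers of other cells were detected too, and their part in the results was not tested. All 6 markers of fibroblasts or dedifferentiated cells were detected, with sums of 132350 and 133206. Of these, 4 were higher and 2 lower, and Tnc alone was past 1.5-fold (163 and 89.2, log2 ratio -0.87, with -0.57 on a second probe). Of 4 endothelial markers 1 was detected, Pecam1 at 111 and 130, while Cdh5, Tek and Tie1 were not. Of 3 osteoblast markers on the array, Sp7 (78.8 and 50.5) and Phex (36.5 and 28.8) were detected and Dmp1 was not. Of the macrophage markers Csf1r stood at 3646 and 3288 (log2 ratio -0.15, with 0.20 and 0.27 on 2 other probes). Adgre1 stood at 55.6 and 59.0, and Ptprc, on a probe of low signal, at 20.9 and 46.1 (log2 ratio 1.14, past 2-fold). All 4 Schwann cell markers were detected, with sums of 884 and 792, and all 3 keratinocyte markers, with sums of 251 and 204. Of 4 skeletal muscle markers 3 were detected, Acta1 (1001 and 806), Myh3 (217 and 339) and Ttn (45.0 and 44.5). In such bulk RNA, fewer cells of a type and less RNA per cell cannot be told apart.

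All 9 genes were detected at both time points, and none of them differed by 2-fold. Piezo2 and Trpc1 were the 2 members more than 1.5-fold higher 24 h after loading, and 0 were more than 1.5-fold lower. Over all detected genes, 3.65% were more than 1.5-fold higher and 5.84% lower, and 0.668% were more than 2-fold higher and 1.83% lower. The 1.5-fold shares stand for 520 higher and 831 lower genes, which became 871 and 573 with scaling to the spike-in controls and 803 and 614 with scaling to the array median. Of the 9 members, 7 had a log2 ratio above 0 and 2, Trpv4 and Gja1, below it, with a median of 0.18. Among all detected genes, 47.6% lay above 0. The ratio was larger than its within-array error in 5 members (55.6%), against 42.8% of detected genes, and larger than 2 errors in 3 of the 9 (33.3%), Piezo2, Trpc1 and Pkd2, against 16.4%. The 5th percentile of the detected genes was -0.63 and the 95th percentile 0.51, and Piezo2 and Trpc1 were the members outside these. With normexp background correction neither of these was past 1.5-fold, with log2 ratios of 0.56 and 0.30. That setting adds an offset of 50 to the signal of both arrays, which by itself draws the ratios of dim probes towards 0.

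**Figure D1:**
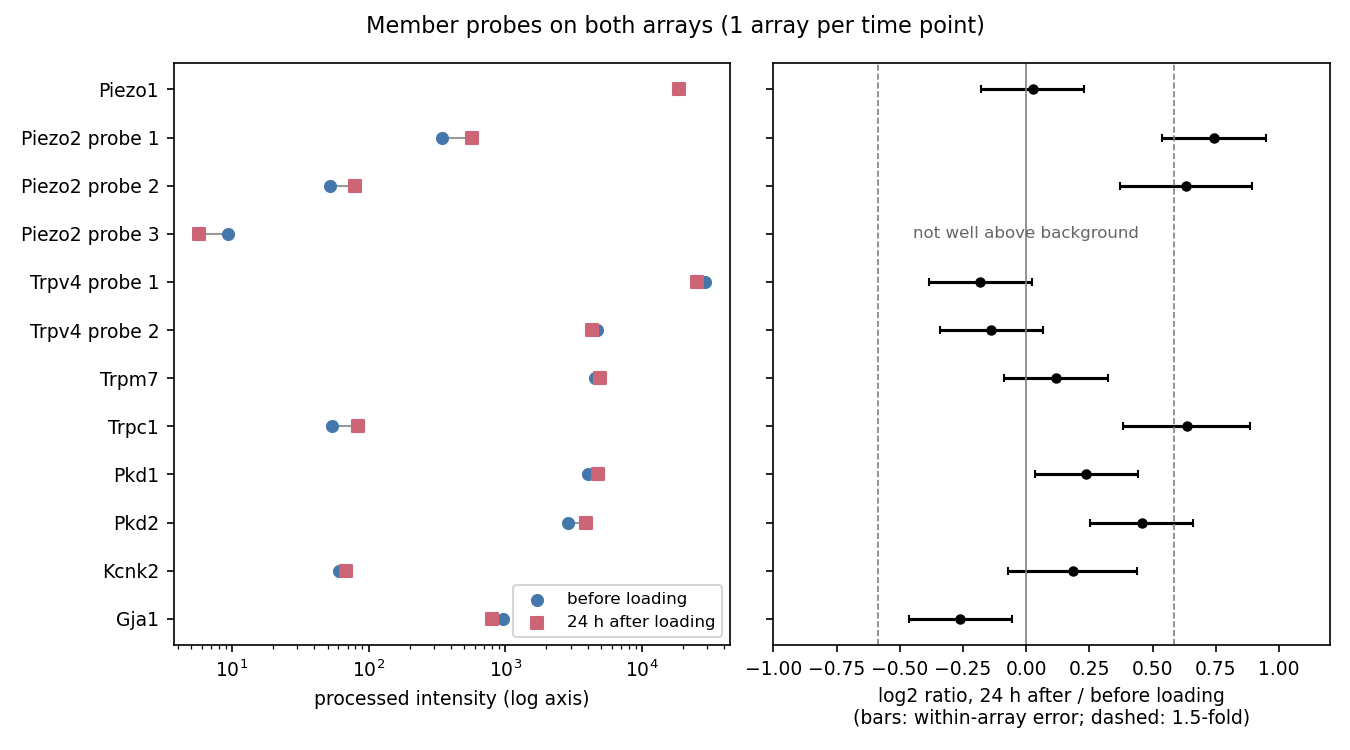
Each line is 1 of the 12 member probes, brightest first within a gene. Left, processed intensity on a log axis before loading (circles) and 24 h after (squares); right, log2 ratio with its within-array error as bars and 1.5-fold as dashed lines. Both detected Piezo2 probes and the Trpc1 probe lie past the upper dashed line, while the 2 Trpv4 probes and the Gja1 probe lie left of 0.

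The stretch before the transcription start is shown for the members with the highest ratios that had an entry in the RefSeq promoter table (build GRCm38.p6), Trpc1 and Pkd2, and for Gja1, the member with the lowest ratio. The table held 8 of the 9 members, all but Piezo2. Each sequence is the 250 bases before the start, read 5′ to 3′ on the strand of the gene, at chr9:95750349-95750598 (minus strand) for Trpc1, chr5:104459207-104459456 (plus strand) for Pkd2 and chr10:56377050-56377299 (plus strand) for Gja1. Capitals mark matches, on either strand, to the letters of 5 motifs bound by factors linked to strain, calcium or inflammation or by the basal machinery: AP-1 (TGANTCA), NF-κB (3 G, any 5 bases, 2 C), TEAD (GGAATG), CRE (TGACGTCA) and the TATA box (TATAAA).
Trpc1: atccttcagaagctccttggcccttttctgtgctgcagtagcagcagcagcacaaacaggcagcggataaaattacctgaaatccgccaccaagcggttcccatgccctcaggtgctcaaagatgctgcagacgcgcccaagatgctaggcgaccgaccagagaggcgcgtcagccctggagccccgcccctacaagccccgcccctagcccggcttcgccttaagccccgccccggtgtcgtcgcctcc
Pkd2: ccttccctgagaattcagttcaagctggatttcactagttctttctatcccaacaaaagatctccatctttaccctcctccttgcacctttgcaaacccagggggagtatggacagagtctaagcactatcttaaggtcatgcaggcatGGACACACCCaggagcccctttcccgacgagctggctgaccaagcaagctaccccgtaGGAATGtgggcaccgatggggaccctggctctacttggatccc
Gja1: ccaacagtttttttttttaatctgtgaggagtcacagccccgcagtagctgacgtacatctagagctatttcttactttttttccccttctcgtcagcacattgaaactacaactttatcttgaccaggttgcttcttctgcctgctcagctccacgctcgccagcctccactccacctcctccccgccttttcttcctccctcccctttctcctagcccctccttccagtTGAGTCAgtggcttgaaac

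The Gja1 sequence held 1 AP-1 match, which began 19 bases before the start. AP-1 letters occurred in 6.75% of 32851 RefSeq promoter windows of this length. The Pkd2 sequence held 1 match to the TEAD letters, 43 bases before the start, and 1 to the NF-κB letters, 101 bases before it. These letters occurred in 12.6% and 45.8% of all windows. No match to CRE (1.55% of windows) or the TATA box (12.4%) was found in the sequences shown, and the Trpc1 sequence held none of the 5. No marked match overlapped another. The Trpc1 sequence had 62.8% G and C with 17 CpG, the Pkd2 sequence 52.8% with 4, and the Gja1 sequence held 6 CpG, against medians of 52.4% and 6 over all windows. Among the members not shown, NF-κB letters matched 4 times in the Trpv4 window, in 2 overlapping pairs, and 2 times each in those of Trpm7 and Pkd1, and the Piezo1 window held TATA letters 24 bases before the start. The table gave Kcnk2 4 start sites, of which the first had 1 TEAD match, the second 1 AP-1 match, the third 3 NF-κB matches and the fourth 2. A match is a run of letters, and binding was not measured.

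The PIEZO channels are the best known stretch-gated cation channels of vertebrate cells, and chondrocytes are known to use both. Piezo1 (NM_001037298, 1 probe) gave an intensity of 18446 on the first array and 18765 on the second. Its log2 ratio was 0.03 (within-array error 0.20), a difference of 0.12 errors. The Piezo1 signal thus differed between the arrays by less than the precision of the scan.

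Piezo2 (NM_001039485), which in sensory neurons carries touch and joint position sense, had 3 probes. The brightest gave 342 before loading and 572 at 24 h, a log2 ratio of 0.74 (error 0.21) or 1.67-fold. The second probe, which the files assign to the same transcript record, gave 51.6 and 80.0, a log2 ratio of 0.63 (error 0.26) or 1.55-fold. Both detected probes were thus past 1.5-fold in the same direction, and their ratios differed by 0.11, against a median range of 0.19 over 3635 genes with more than 1 detected probe. The third probe was below the detection limit at both time points, at 9.32 and 5.73, and gives no ratio. Of all detected genes, 1.81% had a higher log2 ratio than the brightest Piezo2 probe. The log2 ratios of the paralogs, 0.03 for Piezo1 and 0.74 for Piezo2, were not tested against each other. Of the 4 neuronal markers on the array 2 were detected, and Rbfox3 was not. Both were lower at 24 h, Snap25 at 20253 and 18465 and Prph at 220 and 96.5, and their sums were 20494 and 18573.

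The TRP members are calcium-permeable cation channels. Trpv4, the osmosensitive channel of cartilage, in which mutations cause skeletal dysplasias, was read by 2 probes of NM_022017. The brighter probe gave 28868 before loading and 25448 at 24 h, a log2 ratio of -0.18, and the dimmer one 4707 and 4274, a log2 ratio of -0.14 (error 0.20 for each). Both probes were lower at 24 h by less than their errors, by 11.8% and 9.16%, and their ratios lay 0.04 apart.

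Trpm7 (NM_021450), a channel fused to a kinase that carries magnesium and calcium, gave 4507 before loading and 4889 at 24 h. Its log2 ratio of 0.12 (error 0.20) was also inside the error. Trpc1 (NM_011643), a subunit of receptor- and store-operated channels that has been linked to stretch, was read by 1 probe of low signal. It gave 53.4 before loading and 82.9 at 24 h, a log2 ratio of 0.63 (error 0.25) or 1.55-fold, and 2.90% of detected genes had a higher ratio. The detection limit, taken as the dimmest spot well above background, was 17.3 on the first array and 17.8 on the second. Trpc1 was the TRP member with the largest log2 ratio, and the one with the largest error beside it.

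Both polycystin genes were higher at 24 h. Pkd1 (NM_013630), which encodes the large receptor-like polycystin-1, gave 4044 before loading and 4766 at 24 h, a log2 ratio of 0.24 (error 0.20). Pkd2 (NM_008861), which encodes the channel-forming polycystin-2, gave 2857 before loading and 3918 at 24 h. This is a log2 ratio of 0.46 (error 0.20) or 1.37-fold, and 6.49% of detected genes had a higher one. Pkd2 was the member with the largest difference among the 6 whose mean was above the 75th percentile, and it stayed under 1.5-fold under all 7 alternatives that recompute the ratio, with log2 ratios from 0.45 to 0.57. The ratio of Pkd2 was more than 2 errors above 0 and that of Pkd1 1.17 errors. Of all detected genes, 18.1% had a higher log2 ratio than Pkd1. Whether the partners of the complex change together was not tested.

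Kcnk2 (NM_010607), which encodes the stretch-activated potassium channel TREK-1, was read by a probe of low signal, with 60.4 before loading and 68.6 at 24 h. Its log2 ratio of 0.18 (error 0.25) was inside the error.

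Gja1 (NM_010288) encodes the main connexin of chondrocytes and bone cells. It is the one member that the array prints many times, with 10 spots of a single probe, of which 2 were set aside as outliers before loading. Over the 8 remaining spots the intensity ran from 906 through a median of 965 to 1034 before loading, and from 775 through a median of 795 to 835 at 24 h. The highest spot at 24 h lay below the lowest spot before loading. How often this held for other probes with repeated spots was not computed, so that nothing particular to Gja1 is read from it. The mean log2 ratio was -0.26 with an SD over spots of 0.05 and single spots between -0.34 and -0.21, which is 16.5% lower at 24 h. All 10 spots together gave -0.27. The within-array error of 0.20 is the mean of the errors of the 8 single spots and not an error of their mean. The mean ratio was 1.28 times this error. It came inside this error with scaling to the array median (-0.16) and to the spike-in controls (-0.14). Spots of 1 array repeat the same RNA and are not replicates of the condition. The SD over spots of Gja1 was below the median SD of 0.09 over 268 detected probes with at least 8 spots, and 17.2% of these 268 probes had a lower log2 ratio than Gja1.

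**Figure D2:**
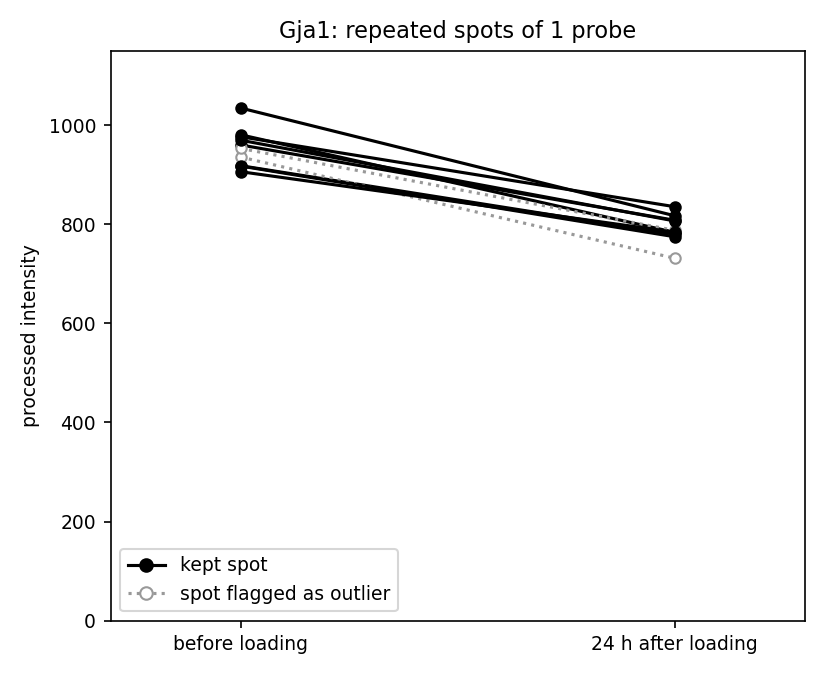
Each line joins the processed intensity of 1 of the 10 Gja1 spots before loading to that at 24 h; filled points are the 8 kept spots and open points the 2 set aside as outliers. Every line slopes down, with the kept spots at 906 to 1034 before loading and at 775 to 835 at 24 h.

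The spread of ratios was set beside probe signal. Piezo1, Trpv4, Trpm7, Pkd1, Pkd2 and Gja1 had means above the 75th percentile and lay between -0.26 and 0.46. Of these 6, 0 were more than 1.5-fold higher, against 2.10% of the 8564 detected genes above that level. Likewise 0 were more than 1.5-fold lower, for which the share by level was not computed. Piezo2, Trpc1 and Kcnk2 had means below the 75th percentile. Of these 3, 2 were more than 1.5-fold higher, against 6.00% of the 5667 detected genes at that level. Piezo2 lay close to the dividing level, with a log2 signal relative to the 75th percentile of -0.45 and then 0.29, a mean of -0.08, while Trpc1 had a mean of -2.81. Whether probe signal has a part in their ratios was not tested. Among the detected spots within 100 µm of each member spot, between 8 and 20 for the genes printed once, 0 were past 2-fold in either direction, and around the 8 Gja1 spots 1 of 117 was. Of all detected spots 0.721% were past 2-fold higher and 1.66% lower.

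**Figure D3:**
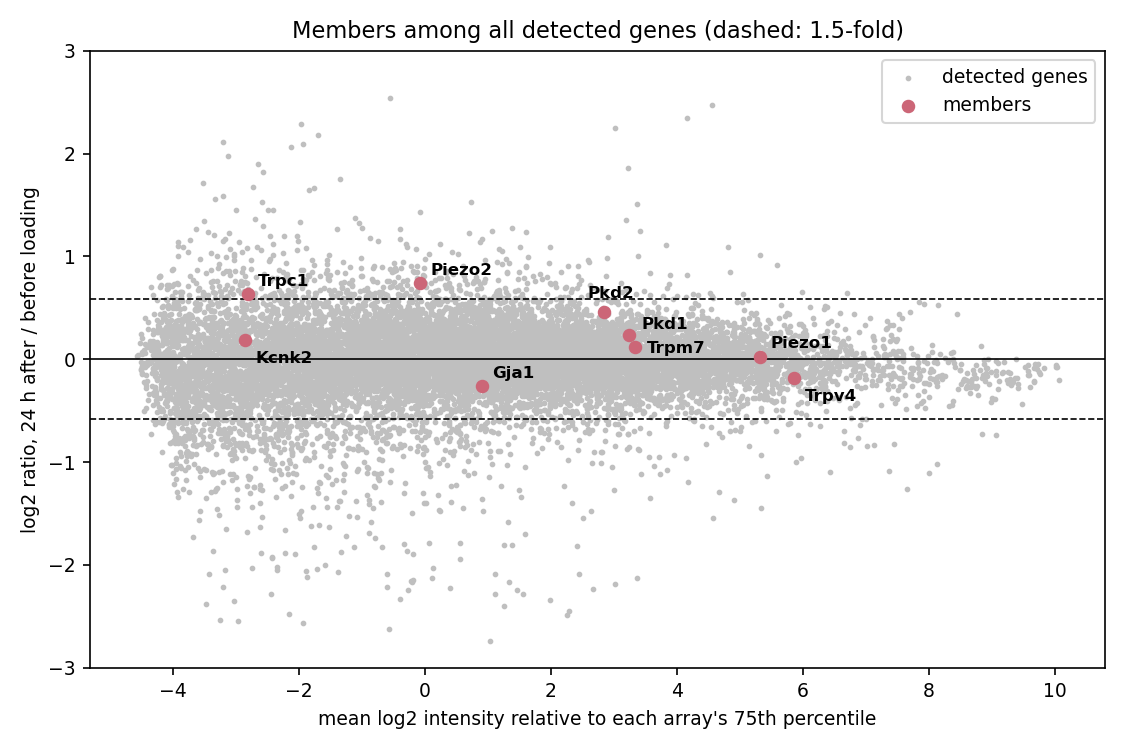
Log2 ratio of 24 h after to before loading (vertical axis) against the mean log2 intensity on a scale where 0 is the 75th percentile of the array (horizontal axis), for 14231 detected genes in grey and the 9 members in colour, with 1.5-fold as dashed lines. Piezo2 (0.74, at a mean of -0.08) and Trpc1 (0.63, further left at -2.81) lie above the upper line, and the other 7 members lie between the lines.

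Other genes of these families and of the calcium pathway were read from 10 lists holding 167 genes, of which 164 were on the arrays and 121 were detected. Of these, 62 were higher and 59 lower at 24 h, with a median log2 ratio of 0.01. A total of 7 (5.79%) were more than 1.5-fold higher, 6 (4.96%) more than 1.5-fold lower, and 1 more than 2-fold lower, where all detected genes gave 3.65% and 5.84% past 1.5-fold. With spike-in scaling 7 were higher and 2 lower past 1.5-fold, and with median or quantile scaling 7 and 3. With normexp correction 2 were past 1.5-fold higher, Mdfi and Rcan2, and 1 was lower. A further 8 listed genes were detected on 1 array alone. They were read against the detection limit of the other array, or against the signal there where that was higher. Among them, the calcium channel Cacna1d gave 61.5 and 18.1, which is 3.39-fold lower at 24 h as measured. The TRP channel Trpc7 was at least 1.92-fold higher in the reported values. With normexp correction their log2 ratios were -0.67 and 0.65.

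Among 12 other TRP channels detected, 6 were higher and 6 lower with a median of 0.02, which lay between -0.09 and 0.14 over the alternatives. The highest was Trpm4, a calcium-activated cation channel (115 and 145, log2 ratio 0.34), and the lowest Trpm5 (371 and 230, log2 ratio -0.69), the only one past 1.5-fold. With normexp correction or spike-in scaling 0 of the list were, and Trpm5 was at -0.52 with normexp. Trpa1, Trpv3, Trpv5, Trpc5, Trpc6, Trpm2 and Trpm3 were not detected on either array. Of the other polycystins, Pkd2l2 (41.9 and 27.3, log2 ratio -0.62) and Pkd1l3 (81.4 and 76.7, log2 ratio -0.08, error 0.23) were detected. Pkd2l2 was past 1.5-fold in 2 of 7 alternatives and at -0.23 with normexp correction. The sign of Pkd1l3 turned under median and spike-in scaling.

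The 10 other two-pore potassium channels detected had a median of 0.02, and 0 were past 1.5-fold. Kcnk6 was the highest (775 and 1035, log2 ratio 0.42) and Kcnk9 the lowest (34.2 and 26.1, log2 ratio -0.39), the latter with 0.01 under normexp correction. Among the 12 other connexins and pannexins detected, 9 were lower at 24 h, as Gja1 was, with a median of -0.10 that turned positive (0.01) with spike-in scaling. Of these, 2 were more than 1.5-fold lower. Gjb2, a connexin known from the inner ear and skin, went from 49.9 to 26.3, a log2 ratio of -0.92 (error 0.34), which was -0.32 with normexp correction. The highest was Gja5, at 23.7 and 25.8 with a log2 ratio of 0.12.

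Of 15 other stretch- or swelling-activated channels detected, 2 were more than 1.5-fold higher. Ano1, a calcium-activated chloride channel, went from 123 to 211, a log2 ratio of 0.78 (error 0.21), and Asic3, an acid-sensing channel, from 22.7 to 37.1, a log2 ratio of 0.71 (error 0.34), with 0.46 and 0.22 under normexp correction. Tmc2 was the lowest (87.3 and 72.5, log2 ratio -0.27). Of 5 partner proteins detected, 1 was past 1.5-fold. Mdfi, whose product belongs to the MyoD family inhibitors that bind and slow PIEZO channels, went from 5296 to 8820, a log2 ratio of 0.74 (error 0.20), and stayed between 0.73 and 0.85 under all 7 alternatives that recompute the ratio. Its relative Mdfic had log2 ratios of -0.17 and -0.36 on 2 probes. Tjp1, the scaffold protein that binds the connexin of Gja1, was the lowest (2972 and 2414, log2 ratio -0.30).

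**Figure D4:**
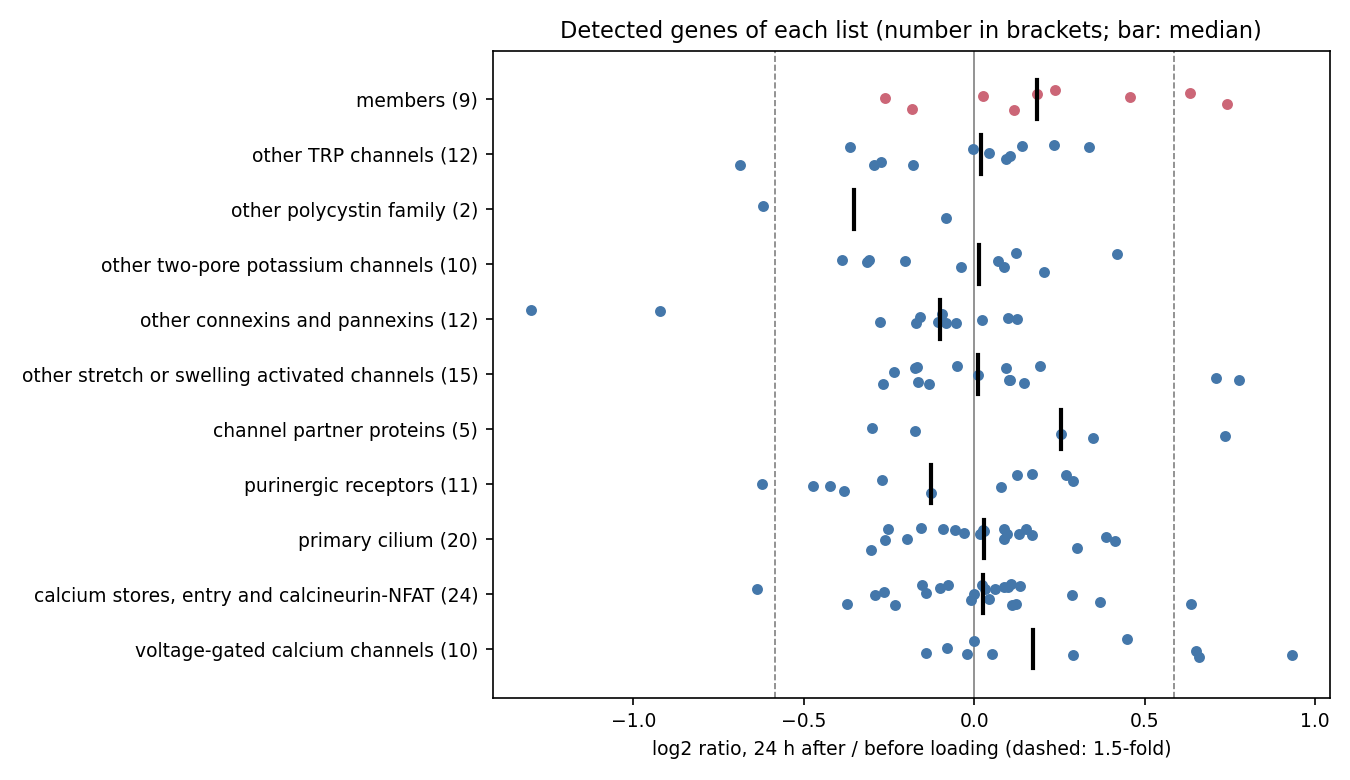
Log2 ratio of 24 h after to before loading for each detected gene (1 point) of the members and of the 10 lists, with the list median as a black bar and 1.5-fold as dashed lines. The members' median of 0.18 lies to the right of 0, between those of voltage-gated calcium channels (0.17) and channel partner proteins (0.26). That of the other polycystins (2 genes) lies at -0.35, and the remaining list medians lie between -0.13 and 0.03. Single genes such as Gjb2 (-0.92) and Cacnb1 (0.93) stand apart.

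Other routes of calcium were read by the remaining lists. Voltage-gated calcium channels had a median of 0.17 over 10 detected genes, with 3 more than 1.5-fold higher: Cacnb1 (73.4 and 140, log2 ratio 0.93), Cacnb2 (23.8 and 37.5, log2 ratio 0.66) and Cacna1g (36.2 and 56.8, log2 ratio 0.65, with 1.00 on a second probe). With normexp correction these were 0.48, 0.15 and 0.20. Cacna1a was the lowest (270 and 245, log2 ratio -0.14). Among 24 detected genes of calcium stores, entry and the calcineurin-NFAT route the median was 0.03. Rcan2, a regulator of calcineurin, was the highest (612 and 951, log2 ratio 0.64), and Nfatc2, a transcription factor that calcineurin activates, the lowest (125 and 80.1, log2 ratio -0.64, or -0.45 with normexp correction). Purinergic receptors, which bind the ATP that hemichannels release, had a median of -0.13 over 11 detected genes, from P2ry6 (183 and 119, log2 ratio -0.62, or -0.41 with normexp correction) to P2rx6 (163 and 199, log2 ratio 0.29). All 20 primary cilium genes listed were detected, with 0 past 1.5-fold, a median of 0.03 and a range from Rpgrip1l (221 and 179, log2 ratio -0.30) to Bbs1 (483 and 643, log2 ratio 0.41, with -0.03 on a second probe).

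**Figure D5:**
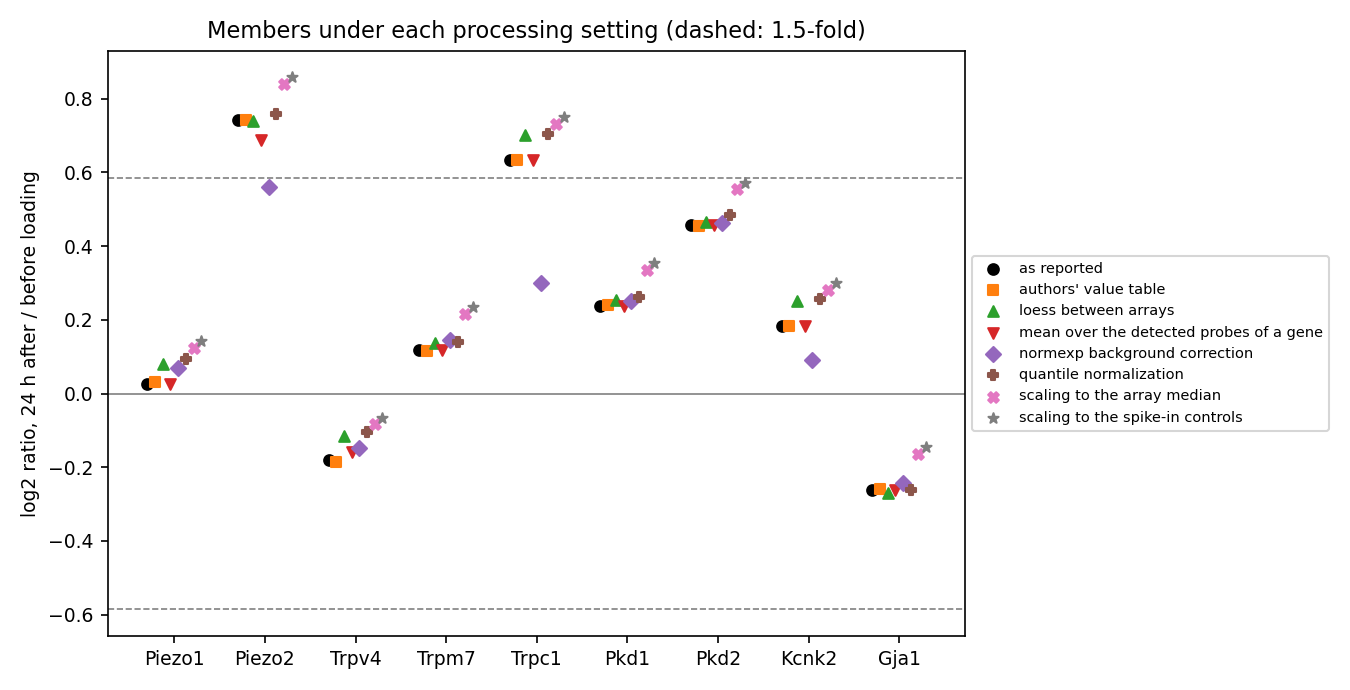
Log2 ratio of 24 h after to before loading of each member as reported (black circles) and under the 7 alternatives that recompute it, with 1.5-fold as dashed lines. Each member stays on its side of 0, and Piezo2 (0.56) and Trpc1 (0.30) come inside 1.5-fold with normexp background correction.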

How the data were processed

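Per the submitters' processing notes the arrays were read with Agilent Feature Extraction 10.10.1.1. The intensity that the authors deposited is the software's background-subtracted, detrended signal, not normalized between arrays, and their value table holds it rounded. RNA of each time point was labelled with Cy3 from 0.1 µg of total RNA, and there was 1 array per group. Outlier spots (141 and 138 of 59305) were dropped on both arrays, log2 intensities of the spots of a probe were averaged, and each array's 75th percentile over 55678 probes was subtracted. Accessions were named without version through RefSeq (GRCm38.p6, names and promoter sequence only; the arrays are annotated on mm9), which matched 27235 probes. The brightest probe represents a gene. Genes named beyond the members are, in each list, those past 1.5-fold and the highest and lowest ratio; others named were chosen after their values were seen, and some listed genes are not reported here. The members, lists and 1.5-fold limit were chosen with earlier results of these data known. A total of 10 alternatives were run, of which normexp (offset 50) and loess used limma 3.58.1 under R 4.3.3. All other steps used Python 3.11.15. The steps were tested on simulated data. The number of arrays limits the precision.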

Additional observations from a re-analysis of the deposited data

How the results depend on the processing

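No paired analysis was possible because each group is a single array. Over the 7 alternatives that recompute ratios, all 9 members kept their sign. Trpc1 moved by more than its within-array error in 1 of them, to 0.30 with normexp correction. The offset of 50 in that setting stands beside Trpc1 intensities of 53.4 and 82.9. How much of the move the offset makes up was not tested. The count of members more than 1.5-fold higher was 0 with normexp correction and also 0 when the fold had to be passed by more than 1 within-array error. It was 2 under the other 8 alternatives, and no member passed 1.5-fold lower or 2-fold under any. The alternatives that loosened the detection filter could not alter these counts, since all 9 members were detected on both arrays. The authors' value table holds the same signal, rounded. The median of the members lay between 0.15 and 0.30. Spike-in scaling raised every ratio by 0.12 and median scaling by 0.10. Of all detected genes past 1.5-fold, 38.5% were higher in the reported values, 60.3% with spike-in scaling and 56.7% with median scaling. In the 10 lists, 7 were higher and 2 lower with spike-in scaling and 7 and 3 with median or quantile scaling. Of the list medians, 3 changed sign under at least 1 alternative. Signal over background limits Trpc1, Kcnk2 and the second Piezo2 probe.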
